A study of Mus musculus with 18 samples.

Results

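The mitochondrial respiratory chain is described here through 94 genes measured in cultured hepatocytes of the mouse, the main cell type of liver tissue. The genes were taken by symbol alone, as all those that begin with Nduf, Sdha, Sdhb, Sdhc, Sdhd, Uqcr, Cox4, Cox5, Cox6, Cox7, Cox8 or Atp5, a rule that uses no measured value. They made up 94 of the 18193 genes with a name on the array. Of them 44 fell under complex I, 8 under complex II, 8 under complex III, 17 under complex IV and 17 under complex V. The prefixes also take in 8 assembly factors of complex I and 4 of complex II, which build the complexes but are no part of them. Where a gene had more than 1 probe set, that with the largest mean signal on the 18 arrays was used, and 53 of the 94 had further probe sets.

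Hepatocytes came from male C57BL/6N mice of 8 to 12 weeks, and cells of 1 animal or a pool of up to 3 served an experiment. They were plated on collagen I, held in serum-free medium with dexamethasone and then in starvation medium without it. Recombinant human IL-6 at 40 ng/ml was given at 0 h, and recombinant mouse HGF at 40 ng/ml was added at 4 h with IL-6 still present. Unstimulated controls were taken at -5 h (1 array) and at 0, 4, 8, 12 and 24 h (5 arrays). IL-6 was sampled hourly from 1 to 4 h (4 arrays), and the combination of both factors at 5, 6, 7, 8, 9, 10, 12 and 24 h (8 arrays). Starved culture without serum is shared by all of the groups from 0 h on.

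Each stimulus and hour was measured on 1 array, so the hours of a group stand in for replicates. The p-values measure the spread between these dishes and hours. Where group means were compared, that spread includes change over time. The matched-hour fit removes change shared by both groups, and the slope fits remove the fitted trend. None of the 18 arrays had IL-6 without HGF after 4 h or HGF without IL-6, so the addition of HGF and a longer exposure to IL-6 cannot be told apart. Albumin (Alb), the main secreted protein of hepatocytes, read between 14.67 and 14.89 (log2 signal) on all 18 arrays, close to the highest value of the array scale at 15.049. Array medians lay between 5.47 and 5.57, and each array's correlation with the rest, averaged, was lowest at 24 h, at 0.981 under IL-6 plus HGF and 0.983 in control. The number of arrays limits the precision.

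Respiratory chain complexes sit in the inner mitochondrial membrane. Complexes I and II take electrons from NADH and from succinate, complex III passes them from ubiquinol to cytochrome c, and complex IV hands them to oxygen. Complexes I, III and IV pump protons, and complex V, the ATP synthase, lets them flow back to make ATP. Most subunits are encoded in the nucleus and imported, while a small set is encoded in mitochondrial DNA. Hepatocytes depend on this machinery for urea synthesis, gluconeogenesis and fatty acid oxidation. The nuclear genes are known to share promoter elements for nuclear respiratory factor 1 (NRF1) and for the ETS family factor GABP, with coactivators of the PGC-1 family acting through them and through estrogen-related receptors (ERR).

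The stretches just upstream of the start site are shown for the 6 genes on which the results below turn, from RefSeq promoter sequences on build GRCm38.p6. Each reads from 5′ to 3′ on the strand of the gene and ends at the base before its start. Capitals mark a searched motif, in Ndufaf4 overlapping copies on both strands, and Ndufaf3 is given only up to the annotated bound of its neighbour Dalrd3, 47 bases away. Ndufaf3 lies on the minus strand at chr9:108567437-108567483, Sdhaf1 on the minus strand at chr7:30322376-30322495 and Ndufa6 on the minus strand at chr15:82354292-82354411. Ndufaf4 lies on the plus strand at chr4:24897963-24898082, Uqcrh on the minus strand at chr4:116075071-116075190 and Atp5o on the minus strand at chr16:91931631-91931750.
Ndufaf3: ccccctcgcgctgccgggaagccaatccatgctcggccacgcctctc
Sdhaf1: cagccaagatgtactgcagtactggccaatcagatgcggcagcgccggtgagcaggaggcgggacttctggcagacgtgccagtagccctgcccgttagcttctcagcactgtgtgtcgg
Ndufa6: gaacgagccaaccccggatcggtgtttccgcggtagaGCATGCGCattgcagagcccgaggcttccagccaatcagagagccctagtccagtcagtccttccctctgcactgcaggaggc
Ndufaf4: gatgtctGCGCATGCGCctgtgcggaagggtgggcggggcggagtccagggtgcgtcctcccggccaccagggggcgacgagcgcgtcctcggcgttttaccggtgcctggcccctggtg
Uqcrh: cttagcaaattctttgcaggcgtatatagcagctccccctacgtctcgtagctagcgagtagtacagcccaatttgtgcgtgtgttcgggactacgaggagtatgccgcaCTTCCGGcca
Atp5o: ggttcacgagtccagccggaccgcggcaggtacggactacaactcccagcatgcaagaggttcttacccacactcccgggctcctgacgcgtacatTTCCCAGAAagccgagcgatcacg

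The search over windows of 300 bases, from 250 before to 50 after a start, covered both strands. Windows were found for 78 of the 94 genes, 83 windows in all, and for 32851 starts in the whole RefSeq table. The NRF1 letters GCATGCGC were in 13.3% of the members' windows (11 windows) and in 2.71% of all windows. The GABP letters CCGGAAG were in 26.5% (22 windows) and 8.86%, and the letters AAGATGG of the factor YY1 in 13.3% (11 windows) and 6.34%. The ERR letters AAGGTCA, which sites of other nuclear receptors also hold, were in 9.64% (8 windows) and 4.72%. The letters TTCNNNGAA, the site form of STAT factors that act downstream of IL-6, were in 7.23% (6 windows) and 8.3%. Ndufa6 and Ndufaf4 carried the NRF1 letters in the stretch shown, Uqcrh the GABP letters and Atp5o the STAT letters, while Ndufaf3 and Sdhaf1 carried none of the 5 there. In its longer window of 300 bases Sdhaf1 did hold the GABP letters, and Ndufaf3 held none of the 5. A match is a description of letters and not a site.

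Across the 18 arrays the members moved little and mostly together, as the plot of complex means by hour shows. With each gene set relative to its own mean, the mean over the 94 members was 0.03 (log2) in the control at -5 h, -0.08 at 0 h, 0.04 at 4 h, 0.03 at 8 h, 0.20 at 12 h and 0.11 at 24 h. With IL-6 it was -0.05, 0.01, -0.03 and -0.02 at 1, 2, 3 and 4 h. With IL-6 plus HGF it was -0.08 at 5 h, -0.01 at 6 h, -0.01 at 7 h, -0.04 at 8 h, -0.01 at 9 h, -0.13 at 10 h, 0.03 at 12 h and 0.01 at 24 h. The control at 12 h was the highest array and that of IL-6 plus HGF at 10 h the lowest. At 12 h in control 89 of the 94 members lay above their own mean, and at 10 h under IL-6 plus HGF 82 lay below it. The group means were 0.061 ± 0.101 (SD, n = 5) in the controls from 0 h on, -0.023 ± 0.023 (SD, n = 4) with IL-6 and -0.030 ± 0.051 (SD, n = 8) with IL-6 plus HGF, and the groups overlap.

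**Figure D1:**
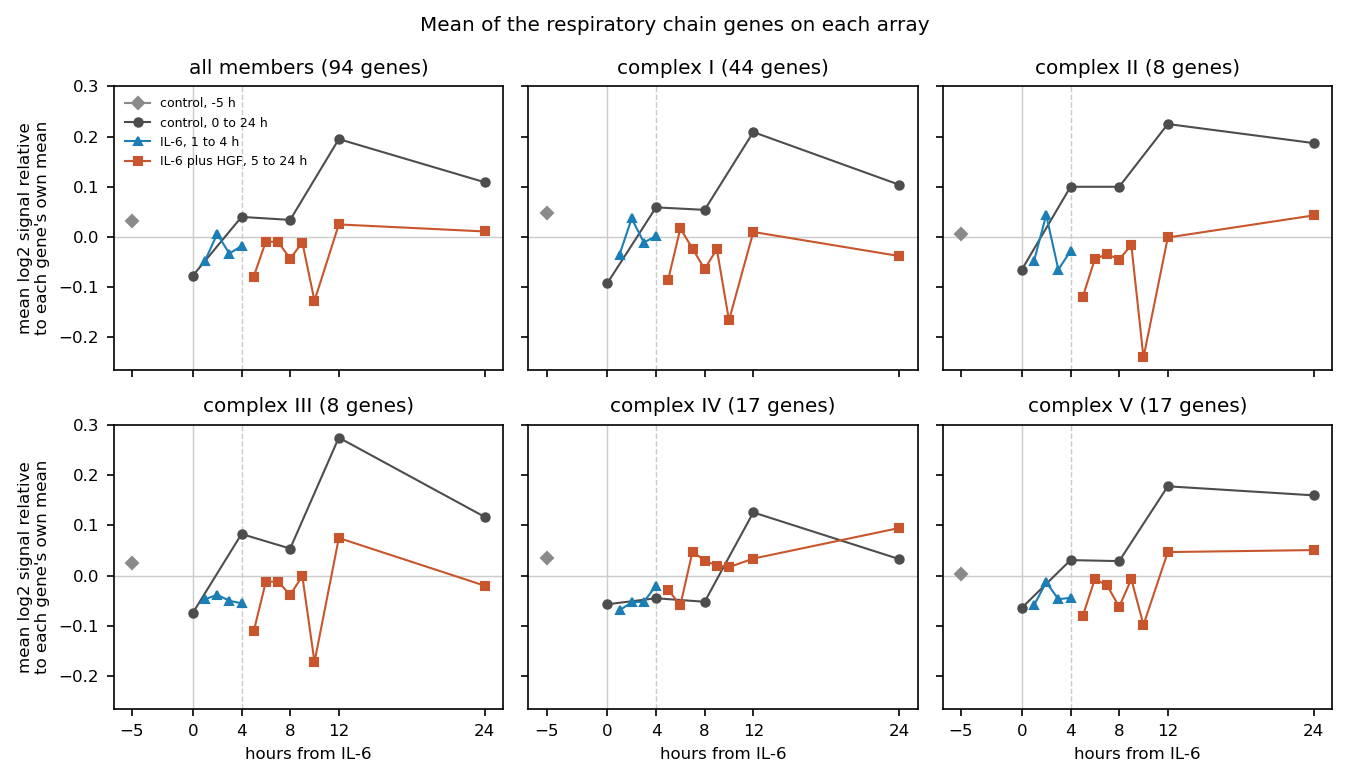
Mean log2 signal of the members on each array, each gene relative to its own mean over 18 arrays (y axis), against hours from IL-6 (x axis), for all 94 members and for each complex. Points are single arrays, grey lines are controls, blue is IL-6 and orange is IL-6 plus HGF; the solid and dashed vertical lines mark IL-6 at 0 h and HGF at 4 h. The control reaches 0.20 at 12 h over all members, while IL-6 plus HGF stays between -0.13 and 0.03.

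The stimulated cells were compared with unstimulated ones at the 3 hours measured in both, 8, 12 and 24 h, with the hour as a block. Ndufaf3, Sdhaf1 and Ndufa6 were lower under the stimuli and Cox7b2 was higher, and 85 of the 94 members had negative differences with a median of -0.109. Over all 18193 genes the median was 0.010 and 8631 were negative. The limma fit with Benjamini-Hochberg adjustment called 6.46% of all genes lower and 2.53% higher. In this fit 3 lower and 1 higher of 94 members are shares below the background. That order was not the same in every fit. A fit of 17 arrays set all 8 arrays under IL-6 plus HGF against the controls at 8, 12 and 24 h, without matching hours. There 13 of 94 members and 1092 of 18193 genes were lower. The members' direction was more uniform than their calls, with 69 of 94 (73.4%) lower in each of the 3 matched pairs, against 24.6% of all genes. Among the 76 members with a mean signal over 9 the share was 84.2% (64 genes). Among the 18 at 9 or less it was 27.8% (5 genes), close to that of all genes. The share among all genes of like signal was not computed. In the pair at 8 h 80 members were lower with a median of -0.083, at 12 h 85 with -0.163, and at 24 h 77 with -0.088. Centring each array on its median turned 461 higher and 1176 lower genes into 676 and 894. After that centring 72 members were negative, with a median of -0.057 beside 0.063 over all genes.

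**Figure D2:**
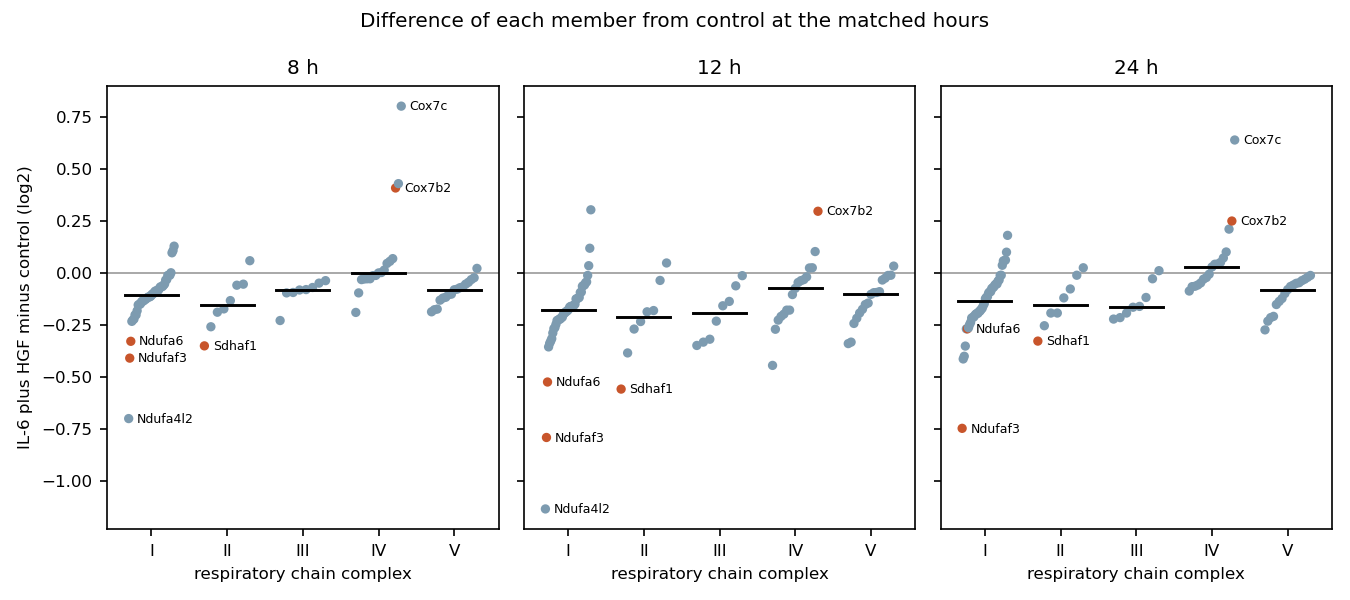
Log2 difference of IL-6 plus HGF minus control (y axis) for each of the 94 members, ordered by size within its complex (x axis), at 8, 12 and 24 h. Each point is 1 gene from 1 pair of arrays, orange points passed the limma threshold over the 3 pairs, black bars are medians, and other named points lie beyond 0.6 in size at that hour. Medians of complexes I, II, III and V lie below 0 at each hour, and that of complex IV lies between -0.07 and 0.03.

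In complex I 41 of 44 members had negative differences, with a median of -0.131, and 2 were lower and 0 higher past the threshold. Ndufaf3, an assembly factor that acts early in building the complex, read 8.11, 8.34, 8.53, 8.88 and 8.97 (log2 signal) in the controls at 0, 4, 8, 12 and 24 h, and 7.91 at -5 h. With IL-6 it read 8.27, 8.39, 8.20 and 8.31 at 1 to 4 h. With IL-6 plus HGF it read 8.03, 8.28, 8.16, 8.12, 8.11, 7.96, 8.08 and 8.22 at 5, 6, 7, 8, 9, 10, 12 and 24 h. The controls thus climbed while the 8 arrays with IL-6 plus HGF stayed within 0.323 of each other, and of the controls from 0 h on only that at 0 h lay within the range of those 8. The matched difference was -0.65 ± 0.10 (SE, adjusted p = 0.0132 in limma), 1.57-fold lower, at -0.41, -0.79 and -0.75 in the 3 pairs. It missed the threshold without the pair at 12 h (-0.58, adjusted p = 0.0563), without that at 24 h (-0.60, 0.0508) and without the time block (0.0794).

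Ndufa6, an accessory subunit of the LYR family that binds the mitochondrial acyl carrier protein, read 10.53, 10.76, 10.71, 10.84 and 10.52 in the controls from 0 to 24 h and 10.78 at -5 h. It read between 10.55 and 10.69 on the 4 arrays with IL-6. With IL-6 plus HGF it read 10.36, 10.53, 10.45, 10.38, 10.39, 10.17, 10.32 and 10.25 from 5 to 24 h. The arrays with IL-6 plus HGF lay below the lowest control, apart from that at 6 h, while the 4 with IL-6 lay above it. Ndufa6 was 1.30-fold lower at the matched hours, by -0.37 ± 0.08 (SE, adjusted p = 0.0413 in limma), and lower in 3 of 3 pairs. It missed the threshold after quantile normalization (adjusted p = 0.0602), after centring (0.0569), without the pair at 8 h (0.121), 12 h (0.177) or 24 h (0.0777) and without the time block (0.186). Over all late arrays it also did so with Malat1 as covariate (0.313) or without the control at 12 h (0.114).

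The other complex I members stayed short of the threshold. The 6 measured core subunits, among them carriers of the flavin and of iron-sulfur clusters, were all negative, with a median of -0.131. Ndufv2, a core subunit with an iron-sulfur cluster, had the largest difference among them, at -0.25 ± 0.07 (SE, adjusted p = 0.0913 in limma). Ndufs1, the largest core subunit, read between 10.29 and 10.39 in the controls from 0 h on and between 10.19 and 10.27 under IL-6 plus HGF. These ranges do not overlap, but how many of all genes separate in this way was not counted. The matched difference of Ndufs1 did not pass. Of the 29 accessory subunits 27 were negative, among them Ndufa5 at -0.29 (adjusted p = 0.0706 in limma) and Ndufc1 at -0.27 (0.0730). Ndufb4, which was positive at 0.17, had a dim mean signal of 3.46. Of the 8 assembly factors 7 were negative with a median of -0.100.

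Ndufaf4, known as the partner of Ndufaf3 in early assembly, was the 1 assembly factor that was not negative. It read 10.52, 10.38, 10.12, 10.02 and 9.70 in the controls from 0 to 24 h, and 10.20, 10.21, 10.22, 10.25, 10.17, 10.06, 10.14 and 9.88 under IL-6 plus HGF. Both groups end lower than they start, opposite to Ndufaf3 in control. Its matched difference was 0.14, higher in 3 of 3 pairs, while its second probe set gave -0.138, so the direction at matched hours differs between its probe sets. With the mean of the other members its correlation over the 18 arrays was -0.456, the lowest of the 94.

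**Figure D3:**
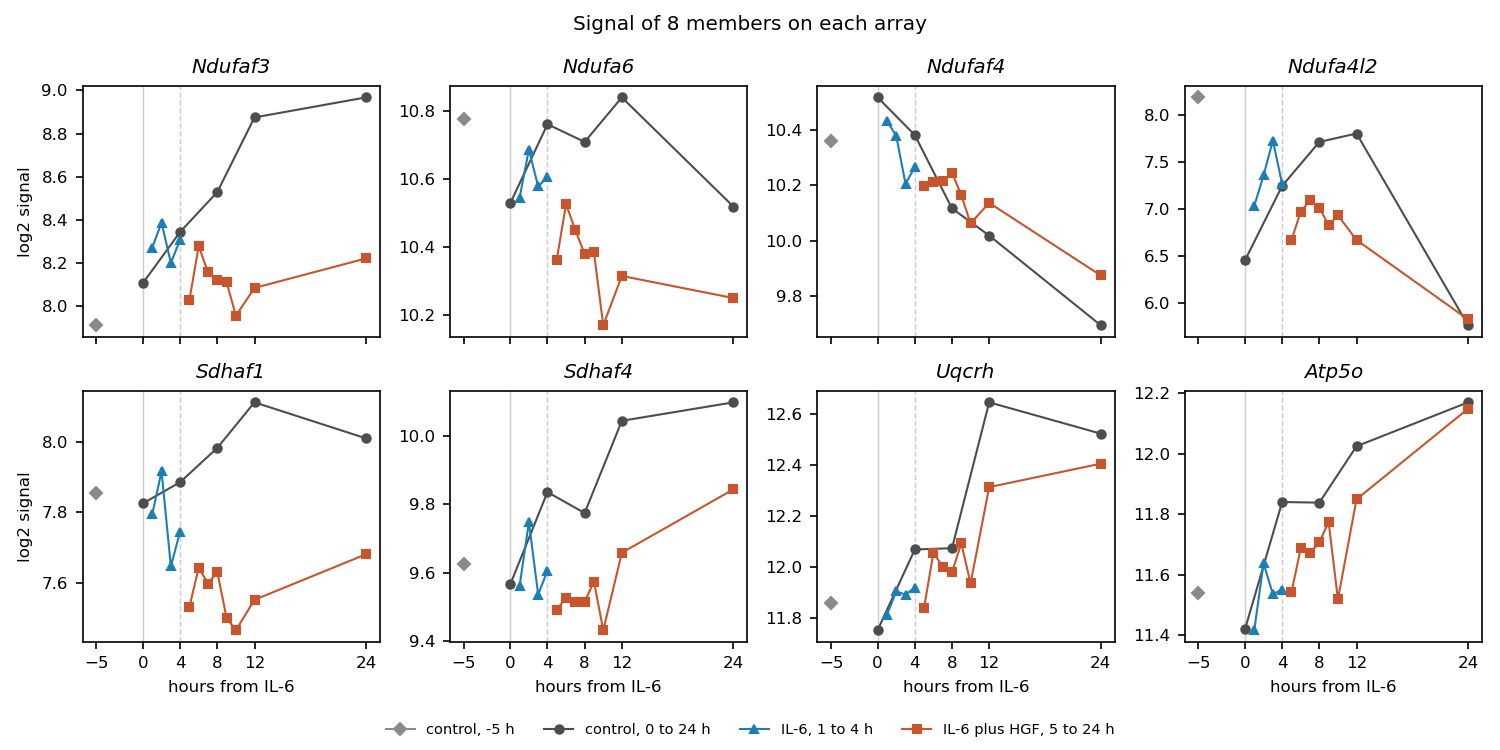
Log2 signal (y axis) of 8 members against hours from IL-6 (x axis), 1 point per array, with controls in grey, IL-6 in blue and IL-6 plus HGF in orange. Ndufaf3 climbs to 8.97 in control and stays at or below 8.28 under IL-6 plus HGF, Sdhaf1 lies below every control under IL-6 plus HGF, and Ndufaf4 ends at 9.70 in control and 9.88 under IL-6 plus HGF.

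In complex II, succinate dehydrogenase, all 8 members had negative differences at the matched hours, with a median of -0.158, and 1 was lower past the threshold. Sdhaf1, an assembly factor for the iron-sulfur clusters of Sdhb, read 7.83, 7.89, 7.98, 8.11 and 8.01 in the controls from 0 to 24 h. It read 7.79, 7.92, 7.65 and 7.75 with IL-6. With IL-6 plus HGF it read 7.53, 7.64, 7.60, 7.63, 7.50, 7.47, 7.55 and 7.68. All 8 of these lay below all 5 controls, a separation that was not counted over all genes. The matched difference was -0.41 ± 0.08 (SE, adjusted p = 0.0299 in limma), 1.33-fold lower. It missed the threshold after quantile normalization (adjusted p = 0.052), without the pair at 8 h (0.0908), 12 h (0.135) or 24 h (0.0681) and without the time block (0.0876). Sdhaf4, an assembly factor that binds flavin-loaded Sdha, differed by -0.30 ± 0.08 (SE) without passing (adjusted p = 0.0577 in limma). The 4 subunits themselves had a median of -0.158, and 0 passed. Sdha, the flavoprotein, read between 11.61 and 11.77 in the controls from 0 h on and between 11.49 and 11.64 under IL-6 plus HGF.

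Complex III had 8 of 8 negative differences, with a median of -0.149 and 0 past the threshold. Uqcrq, a small accessory subunit, had the smallest p, at -0.25 ± 0.07 (SE, adjusted p = 0.0955 in limma). Its 3 further probe sets were dim and split in direction. Complex V had 17 of 17 negative, with a median of -0.109 and 0 past the threshold. Atp5g1, one of the genes for the proton-carrying c-ring, had the smallest p there, at -0.22 ± 0.08 (SE, adjusted p = 0.143 in limma). The catalytic core gene Atp5b read between 13.32 and 13.55 in the controls and between 13.30 and 13.54 under IL-6 plus HGF, nearly the same range. Centring left 7 of 8 negative in complex III and 13 of 17 in complex V.

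Complex IV stood apart in its median over all 17 members, -0.030, with 11 of 17 negative, 1 higher and 0 lower. After centring 6 of 17 were negative and the median was 0.022, so its direction depends on the scaling. Of its members 6 are isoforms that other tissues use. Cox6a2, Cox7a1 and Cox8b belong to heart and muscle, Cox4i2 to lung, and Cox6b2 and Cox8c to testis. Cox7a1 had a mean signal of 4.08, Cox6b2 4.50 and Cox4i2 5.03, and Cox7b2, a relative of the subunit gene Cox7b, had 3.25. Cox8b had 5.99, and Cox6a2 and Cox8c were brighter at 7.02 and 8.46. Cox7b2 passed at 0.32 ± 0.08 (SE, adjusted p = 0.0496 in limma), from 2.93, 3.13 and 3.15 in the matched controls to 3.34, 3.43 and 3.40. Its mean signal was at percentile 5.5 of all genes, so it was not tested where dim genes were left out, and its adjusted p was 0.0501 with an intensity trend and 0.0657 after quantile normalization. Both probe sets of Cox7c, a subunit found in all tissues, were low as well, at means of 5.92 and 3.96, and its signal ran from 4.78 to 7.55, lowest at 6 h and highest at 10 h under IL-6 plus HGF.

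Without Cox7c, Cox7b2 and the other-tissue isoforms 9 complex IV genes remained, and 0 of them passed. All 9 had negative matched differences, from -0.10 (Cox7a2l) to -0.03 (Cox4i1), and 6 of them were lower in 3 of 3 pairs. In direction these 9 therefore went with the other complexes on the values as deposited. After centring only 6 of all complex IV members were negative, so not all of these 9 were, and their direction too depends on the scaling. Their mean relative level was 0.17 at 12 h and 0.13 at 24 h in control against 0.05 and 0.11 under IL-6 plus HGF. Cox4i1, the common isoform of the largest nuclear-encoded subunit, read 13.06, 13.13, 13.15, 13.24 and 13.30 in the controls from 0 to 24 h. Under IL-6 plus HGF it read 13.12, 13.22 and 13.27 at 8, 12 and 24 h, lower than control by -0.03, -0.02 and -0.03. Cox5a, which binds next to it, read 12.89, 12.84 and 12.97 in control and 12.70, 12.87 and 13.02 under IL-6 plus HGF at those hours, lower in 1 of 3 pairs.

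IL-6 alone was compared with control over the first hours, 1 to 4 h against 0 and 4 h. No member passed in limma, 1 had an unadjusted p under 0.05, and the median difference was -0.015 with 58 of 94 negative. Over all genes 4, or 0.022%, passed. The member with that p was Cox8b, the muscle isoform, at 0.20 ± 0.09 (SE, adjusted p = 1). Sdhb, the iron-sulfur subunit of complex II, had -0.11 ± 0.08 (SE) and Uqcrb of complex III -0.08 ± 0.07 (SE), both within the spread between arrays. The median was 0.013 after centring and 0.046 without the control at 4 h, so the sign of this shift is not settled.

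Whether the difference from control itself changed between the first 4 hours and the time under IL-6 plus HGF was tested in the same fit. That fit of 17 arrays set all 8 arrays under IL-6 plus HGF against the controls at 8, 12 and 24 h. Hours were not matched and the fit had no time term. Change over time therefore enters the values below and cannot be told apart from a change of the difference. Again 0 members passed and 0.022% of genes did, while 12 members had an unadjusted p under 0.05. The median change was -0.139, with 83 of 94 negative, beside 0.009 over all genes. It was -0.079 without the control at 0 h and -0.178 without that at 4 h. Ndufaf3 had the smallest p, at -0.74 ± 0.15 (SE, adjusted p = 0.110 in limma), and Sdhaf1 had -0.38 ± 0.11 (SE, adjusted p = 0.256). Without the control at 8 h Ndufaf3 passed, at -0.87. In the other fits of this comparison no member did.

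Time trends were fitted apart from this comparison, as the change in log2 signal for each doubling of time. In control, where the variable was hours plus 1, Atp5o and Ndufaf3 rose and 0 members fell, against 2.14% of all genes rising and 1.47% falling. The members' median slope was 0.045 with 15 of 94 negative, beside -0.002 over all genes, and after centring 33 were negative with a median of 0.024. Of the 94 members 61 had their lowest control at 0 h, and 50 had their highest at 12 h and 31 at 24 h. Atp5o, the stalk subunit that joins the catalytic head of the ATP synthase to its membrane part, read 11.42, 11.84, 11.84, 12.02 and 12.17 in the controls from 0 to 24 h. Its slope was 0.16 ± 0.03 (SE, adjusted p = 0.0404 in limma). Ndufaf3 rose by 0.19 ± 0.04 (SE, adjusted p = 0.0440), and Ndufaf4 had -0.17 without passing (adjusted p = 0.0569). Without any 1 of the 5 controls neither gene passed. No member was called without 0, 4, 8 or 12 h, and Ndufa4l2 alone without 24 h (0.38, adjusted p = 0.00737).

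Under IL-6 plus HGF Atp5o and Uqcrh rose, Ndufa4l2 fell, and 91 members stayed short of the threshold, against 6.27% of all genes rising and 4.84% falling. The median slope was 0.023 with 37 of 94 negative, and -0.009 with 55 negative after centring, so the direction of the median depends on the scaling. Uqcrh, the hinge protein of complex III near cytochrome c1, read 11.84, 12.06, 12.00, 11.98, 12.09, 11.94, 12.31 and 12.41 from 5 to 24 h. The last 2 hours carry the rise, and the slope was 0.23 ± 0.06 (SE, adjusted p = 0.0383 in limma). In control Uqcrh read 11.75, 12.07, 12.07, 12.65 and 12.52, with a slope of 0.18 ± 0.05 (SE) that missed the threshold (adjusted p = 0.0786). Atp5o read from 11.54 at 5 h to 12.15 at 24 h under IL-6 plus HGF, a slope of 0.24 ± 0.07 (SE, adjusted p = 0.0407), and both probe sets of each gene had positive slopes in both groups. After centring Atp5o (adjusted p = 0.0553) and Uqcrh (0.0596) no longer passed, and Atp5g1, Ndufa4l2 and Ndufaf4 were called falling. No member passed without the array at 7, 8, 9, 12 or 24 h, 1 did without that at 5 h (Ndufa4l2) or 6 h (Uqcrh), and 11 did without that at 10 h. Over all genes 1769 rose and 1326 fell without the array at 10 h.

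Ndufa4l2, a paralog of Ndufa4 that is known as a target of hypoxia-inducible factor, was the member with the second widest range, after Cox7c, at 2.429. It read 8.19 in the control at -5 h, then 6.46, 7.25, 7.72, 7.81 and 5.76 from 0 to 24 h. It read 7.04, 7.36, 7.73 and 7.27 with IL-6. With IL-6 plus HGF it read 6.67, 6.97, 7.10, 7.02, 6.83, 6.94, 6.67 and 5.83. Both groups dropped between 12 and 24 h to nearly the same value. The slope of -0.45 ± 0.12 (SE, adjusted p = 0.0384 in limma) rests on that last hour, since without 24 h it was -0.045 (adjusted p = 0.922). At 8 and 12 h the stimulated arrays were lower by -0.70 and -1.14, and at 24 h they differed by 0.06. Ndufa4 itself, placed under complex I by its symbol and now regarded as a subunit of complex IV, did not pass in any of the 7 comparisons.

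**Figure D4:**
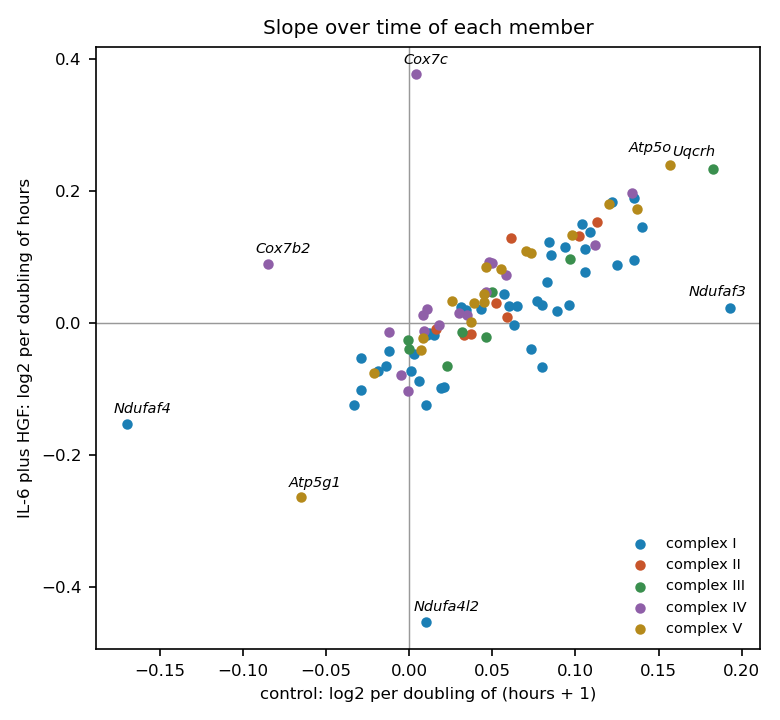
Slope of each of the 94 members under IL-6 plus HGF (y axis, log2 per doubling of hours, 8 arrays) against its slope in control (x axis, log2 per doubling of hours plus 1, 5 arrays), coloured by complex. Each point is 1 gene; Atp5o, Uqcrh and Ndufaf3 lie at the right, and Ndufa4l2 and Cox7c lie far from the rest on the y axis. Ndufaf3 has a slope of 0.19 in control and 0.02 under IL-6 plus HGF, and Ndufaf4 is below 0 in both.

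The slopes of the 2 groups were compared in 1 fit of 12 arrays with hours in both groups. Among the members 0 differed, against 0.0989% of all genes. Ndufaf3 had the smallest p, with a difference of slopes of -0.24 ± 0.09 (SE, adjusted p = 0.626 in limma), followed by Cox8b at -0.16 ± 0.08 (SE, adjusted p = 0.818). A difference in slope between the groups was not detectable for any member with these arrays. The control taken 5 h before IL-6 was also set against the 5 later controls. No member and no gene passed (0% of all genes, 1019 of them at an unadjusted p under 0.05, and 0 members). The members' median was -0.044, and 0.031 after centring. Ndufaf7, an assembly factor of complex I, had the smallest p among the members of that complex, at -0.33 ± 0.15 (SE, adjusted p = 0.838).

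Other genes of the pathway were counted in the same matched-hour fit. Of 41 measured electron carriers and assembly factors of complexes III, IV and V 7 were lower and 0 higher, with a median of -0.130 and 35 negative. Cox20, which guides the mitochondrially encoded subunit COX2 into complex IV, was lower by -0.59 ± 0.09 (SE, adjusted p = 0.0138 in limma), from 9.50, 9.69 and 9.39 in the matched controls to 9.06, 8.90 and 8.85. Etfb, which carries electrons from fatty acid oxidation towards ubiquinone, was lower by -0.54 ± 0.10 (SE, adjusted p = 0.0236). The carriers cytochrome c (Cycs) at 0.01 and cytochrome c1 (Cyc1) at -0.12 did not pass. Whether this list differs from the 6.46% of all genes that were lower was not tested.

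Further lists of mitochondrial genes were counted beside the same 6.46% of all genes that were lower. Of 76 mitochondrial ribosomal proteins 1 was lower and 64 were negative, with a median of -0.097. Of 49 cytosolic ribosomal proteins 0 passed, 23 were negative and the median was 0.001. Of 16 genes of the tricarboxylic acid cycle and pyruvate dehydrogenase 1 was lower, with a median of -0.099, and citrate synthase (Cs) had 0.10. Of 13 carriers of the inner membrane 3 were lower, with a median of -0.076. Of 8 mitochondrial antioxidants 2 were lower, with a median of -0.226. Gpx4, which reduces lipid peroxides, was lower by -0.38 (adjusted p = 0.0390 in limma), and Nnt, which makes NADPH in the matrix, by -0.49 (0.0249). Of 17 import factors and chaperones 1 was lower, with a median of 0.016. Of 15 glycolytic genes 2 were higher and 1 lower, with a median of 0.013. Pkm, pyruvate kinase, was higher by 0.50 (adjusted p = 0.0208) and the glucose transporter gene Slc2a1 by 0.52 (0.0149).

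Among 22 regulators of mitochondrial biogenesis 1 was higher and 3 lower, with a median of -0.010. Ppargc1a, which encodes the coactivator PGC-1α, was lower by -0.66 ± 0.11 (SE, adjusted p = 0.0177 in limma), at a dim signal of 4.86, 5.05 and 5.57 in the matched controls and 4.06, 4.21 and 5.21 under IL-6 plus HGF. Gabpa, which encodes the DNA-binding subunit of GABP, was higher by 0.36 ± 0.08 (SE, adjusted p = 0.0411). Nrf1 had 0.02, Esrra, the gene of an ERR, -0.002, and Tfam, which packs and transcribes mitochondrial DNA, -0.06, none of them past the threshold. Of the genes in mitochondrial DNA only ND5 had a probe set, and it did not pass (0.11, adjusted p = 0.411). It read between 13.57 and 14.44, highest at 10 h under IL-6 plus HGF, where the nuclear members were lowest.

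Measures of other kinds moved with the members and are given as values. Malat1, an RNA that stays in the nucleus, read 11.52 in the control at 0 h and 9.62, 9.62, 9.35 and 9.81 from 4 to 24 h. It read between 11.24 and 11.65 with IL-6. Under IL-6 plus HGF it ran from 9.16 at 6 h to 12.68 at 10 h, and at the matched hours it was 2.94-fold higher (1.56 ± 0.21 SE, adjusted p = 0.00901 in limma). Over the 18 arrays its correlation with the members' mean was -0.723, and with Cox7c it was 0.735. With Malat1 as a covariate, in a fit of 17 arrays added after the data had been seen, Ndufaf3 (-0.55, adjusted p = 0.0154) and Sdhaf1 (-0.40, 0.0219) were lower and the members' median was -0.082. Over all genes 155 were lower with the covariate. The same fit without the covariate gave 13 lower members, 1092 lower genes in all and a members' median of -0.140. Without the array at 10 h it gave 9 members and 1019 genes. Without the control at 12 h it gave 2 members, Ndufaf3 and Sdhaf1 again, and 697 genes. The calls thus moved over all genes and not only among the members. Hours are not matched in these fits.

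Hepatocyte markers were negative at the matched hours in 9 of 9 genes, with a median of -0.295, and 3 were lower. Cps1, of the urea cycle, was lower by -1.49 (adjusted p = 0.0147 in limma) and Hnf4a, a transcription factor of hepatocyte identity, was lower by -0.67. Their mean relative level was 0.55 at 0 h and -0.79 at 24 h in control, and 0.07 at 5 h and -1.37 at 24 h under IL-6 plus HGF. In bulk RNA fewer cells of a type and less RNA per cell cannot be told apart. Of 14 Kupffer cell markers 13 were negative and 1 was lower, and their mean relative level lay between -0.15 and 0.53 in the controls from 0 h on and between -0.22 and 0.14 under IL-6 plus HGF. Of 12 liver endothelial markers 11 were negative and 2 lower, with means between -0.02 and 0.41 in the controls and between -0.33 and 0.15 under IL-6 plus HGF. Of 10 stellate cell and fibroblast markers 0 passed, of 7 blood cell markers 0 passed, and of 6 cholangiocyte markers Sox9 was higher (0.55, adjusted p = 0.00943). Array signals have no true zero, so absence of a marker cannot be read, and the part of these markers in the members' values was not tested.

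How alike the members were was described by the correlation of each with the mean of the other 93 over the 18 arrays, which share all technical differences between arrays. The median correlation was 0.707, and 66 of 94 were above 0.5. Ndufv2 at 0.958, Ndufb3 at 0.950 and Uqcr10 at 0.943 followed the rest most closely. Below 0 were 9 members, namely Ndufaf4, Ndufb4, Cox7c, Cox8b, Cox8c, Cox7b2, Cox6a2, Ndufa10 and Ndufs7. Ndufb4, Cox7c, Cox8b, Cox7b2 and Cox6a2 had mean signals of 3.46, 5.92, 5.99, 3.25 and 7.02. Ndufa10, Ndufs7, Ndufaf4 and Cox8c were brighter, at 11.40, 11.17, 10.19 and 8.46. Outside the 94 the genes most like the members' mean were Gstm5 at 0.966, Slc25a20 at 0.950, Yipf1 at 0.944, Immp1l at 0.940, Hint1 at 0.938, S100a13 at 0.925, Ebpl at 0.923 and Mcee at 0.921. Of the 53 members with several probe sets 33 had 1 sign in all of them at the matched hours, 32 for the slope under IL-6 plus HGF and 38 for the slope in control.

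**Figure D5:**
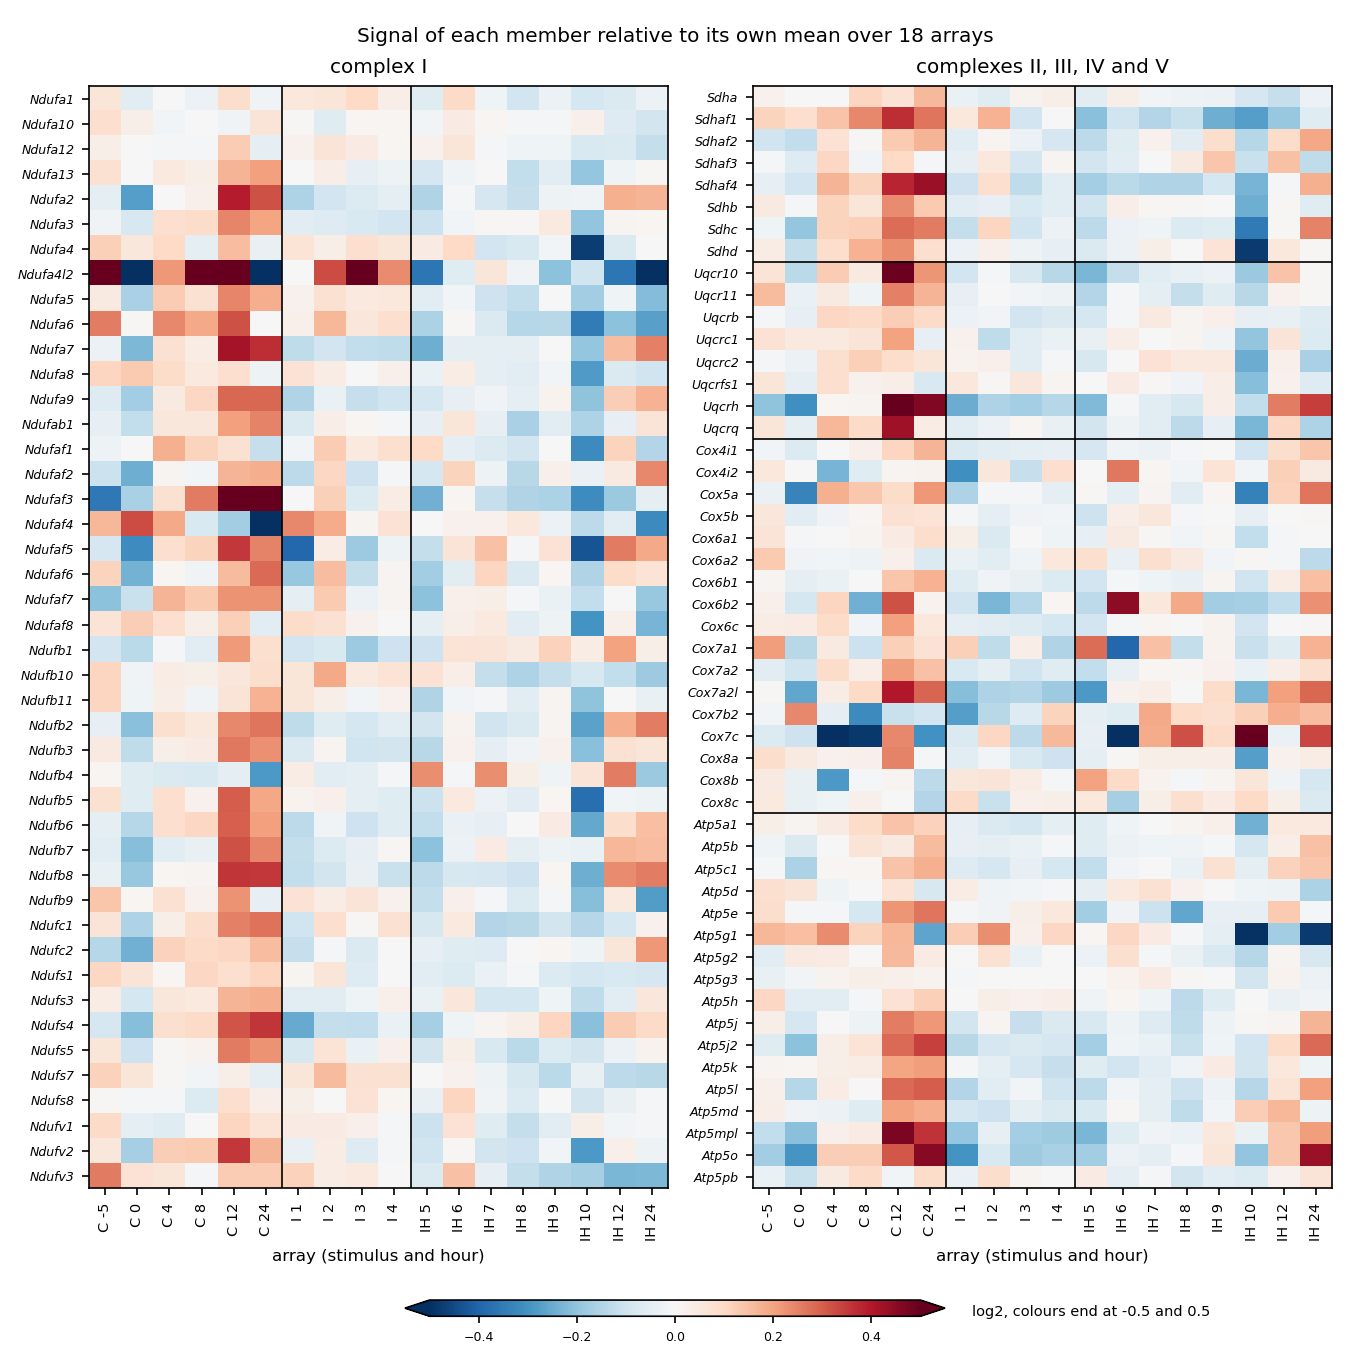
Log2 signal of each of the 94 members (rows of cells, complex I at left and complexes II, III, IV and V at right, top to bottom) relative to its own mean over the 18 arrays, by array (x axis; C is control, I is IL-6, IH is IL-6 plus HGF, with the hour). Red is above and blue below the gene's own mean, with colours ending at 0.5 in size. The controls at 12 and 24 h are red for most members and the array at 10 h under IL-6 plus HGF is blue, while Ndufaf4 at 24 h in control and Cox7c at 10 h under IL-6 plus HGF have the opposite colour to most members.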

How the data were processed

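RNA of 18 cultures was labelled with biotin and hybridised to 1-colour Affymetrix arrays, 1 array per stimulus and hour. The deposited values are log2 signals for 45101 probe sets, already summarised and normalized by the authors; the method is not given in the sources used here. Sorted values of the arrays deviated from their mean by at most 0.118, and the values were used as deposited.

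After removal of 64 control probe sets, 34945 had 1 gene symbol, 932 several and 9224 none; 34741 were matched by Entrez identifier, and no symbol changed. The probe set with the largest mean stood for a gene, which left 18193 genes. Every gene entered a linear model with moderated variance (limma 3.58.1, under R 4.3.3), p-values were adjusted by Benjamini-Hochberg, and the threshold was 0.05. Controls and stimulated cells were paired by the hour in the labels. The scripts were tested on simulated data. Alternatives were quantile normalization, centring, leaving out genes below percentile 40, an intensity trend, the mean of probe sets, other time terms and leaving out arrays; 3 more, with Malat1 as covariate or 1 array left out, were chosen after seeing the data.

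Named per comparison and complex were up to 3 members past the threshold or the 1 with the smallest p, plus fixed members and up to 2 passing genes of each list. Ndufv2, Ndufa5, Ndufc1 and the dim complex IV isoforms were named after their values were seen. The members and lists were chosen with earlier results of these data known.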

Additional observations from a re-analysis of the deposited data

Results flagged for a closer look

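Single arrays stood far from the rest of their group for 15 of 147 member and group combinations tested with Dixon's criterion. These combinations cover a part of the members. Chance gives about 1 in 20 for independent values. The members share the same arrays and the hours form a series, so the 15 cannot be read against that rate. The array at 10 h under IL-6 plus HGF was the low one for Atp5a1 (12.78), Cox8a (10.87), Ndufa4 (10.89), Sdhb (11.24), Sdhd (10.85) and Uqcrfs1 (11.77), all in log2 signal. On the same array the members' mean was lowest and Malat1 highest. In control the array at 0 h stood apart for Atp5g3 (13.54), Cox5a (12.42), Ndufaf7 (7.9) and Uqcrb (13.74). The control at 12 h did so for Atp5g2 (11.98) and Cox8a (11.39), and that at 24 h for Atp5g1 (10.91). Under IL-6 plus HGF Ndufa1 stood apart at 6 h (12.51) and Ndufa4l2 at 24 h (5.83).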

How the results depend on the processing

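At the matched hours 4 members were called. In the next fits all called members were lower, and brackets give the lower genes over all, 1176 in the main fit. The count was 1 after quantile normalization (873), 0 without the time block (94) and 7 of 89 without dim genes (1378 of 10916). It was 10 with an intensity trend (1498), 13 with all late arrays of the 17-array fit (1092) and 21 with a spline of time (2096). Of the alternatives chosen after seeing the data, the Malat1 covariate gave 2 (155). The others left out the control at 12 h, with 2 (697), or IL-6 plus HGF at 10 h, with 9 (1019). Calls over all genes moved as well, so these counts alone do not describe the members. With any 1 pair left out 1 member was called each time, a different one (Ndufaf3 without 8 h, Cox7c without 12 h, Ndufa4l2 without 24 h). Over all genes 615, 407 and 552 were lower in these fits, and 228, 178 and 207 higher. For the change of the difference the count ran from 0 to 1 over the arrays left out, against 0. For the trend under IL-6 plus HGF, with 3 called, it was 7 without dim genes, 8 with an intensity trend, 7 after quantile normalization, 0 without 24 h, and 0 to 11 over the arrays left out. Over all genes 1140 rose and 880 fell in the main fit, 50 and 194 without 24 h, and 1769 and 1326 without 10 h. For the trend in control, with 2 called, it was 1 after centring, 5 without dim genes, 8 with an intensity trend, 1 without 24 h, and 0 to 1 over the arrays left out. Over all genes 390 rose and 267 fell in the main fit, 606 and 382 without dim genes, and 14 and 9 without the control at 4 h. IL-6 alone, the difference of trends and the control at -5 h gave 0 throughout. No named result with a call reversed. No paired analysis was possible because the labels carry no replicate numbers, other than the pairing by hour. Dim signals limit Cox7b2, Cox7c, Ndufb4 and, of the isoforms of other tissues, Cox7a1, Cox6b2, Cox4i2 and Cox8b.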
